A study of Mus musculus with 12 samples.

Results

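Bone marrow-derived macrophages (BMDM) without IL-4 were compared between libraries with little and with much Camkk2 RNA. Among the 12 libraries of the series, 6 entered the comparison, 1 low and 1 high from each of WT soft, Camkk2-/- soft and Camkk2-/- stiff. The sides were chosen by the measured Camkk2 itself, at 20 TPM (a transcript level in which reads are divided by gene length and every library is scaled to the same total). The libraries labelled WT soft 1, Camkk2-/- soft 1 and Camkk2-/- stiff 1 held 44.2, 46.6 and 37.7 TPM, and those numbered 2 held 11.7, 11.5 and 10.0 TPM in the same order. The values nearest to the threshold were therefore 11.7 TPM below and 37.7 TPM above it, and they are given as a description with no test. The sides coincide with the number that the labels give each library, so that Camkk2 level and library number cannot be told apart in these 6 libraries.

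The BMDM came from WT or Camkk2-/- C57Bl/6 mice of both sexes aged 8 to 10 weeks. The BMDM were embedded in a collagen and hyaluronic acid hydrogel. It was left soft, left soft with the cytokine IL-4, or stiffened by UV crosslinking 24 h after embedding. RNA was taken 48 h later, after digestion of the gel with collagenase IV at 400 U/mL. Each of the 6 groups had 2 libraries, stated to be biological replicates. In the comparison by Camkk2, p-values measure how the difference between low and high libraries varies over the labelled groups. Under IL-4, they measure the spread between the 2 libraries of a genotype. The titles of the IL-4 libraries all carry the same soft number, so whether those of a genotype are separate preparations is not known. The study describes the Camkk2 deletion as germline, so it is not limited to macrophages, and the labels name no allele and tie no library to an animal.

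CaMKK2 is a calcium/calmodulin-dependent kinase that phosphorylates CaMKI, CaMKIV and the energy sensor AMPK. In macrophages it is known for a part in inflammatory signaling and lipid handling.

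Camkk2 went against the labels of 3 of these libraries: the library labelled WT soft 2 was low, and those labelled Camkk2-/- soft 1 and Camkk2-/- stiff 1 were high. None of the 12 libraries lacked the RNA, and whether the reads come from a deleted or an intact allele cannot be read from TPM. All libraries keep their labels here, and no genotype is inferred. The 6 other libraries served as a check, since the rule did not use them. In soft+IL4, Camkk2 was 30.5 and 29.8 TPM in the WT libraries and 11.5 and 8.54 TPM in the Camkk2-/- libraries, so the genotypes did not overlap (39.0% of all genes tested). This difference of -1.51 ± 0.14 (log2, SE) passed the test (an adjusted p under 0.05; Benjamini-Hochberg; limma adjusted p = 0.0126, and 0.111 without WT soft+IL4 1 and 0.0638 without WT soft+IL4 2). In WT stiff, Camkk2 was 23.3 and 23.7 TPM, between both sides of the split.

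**Figure D1:**
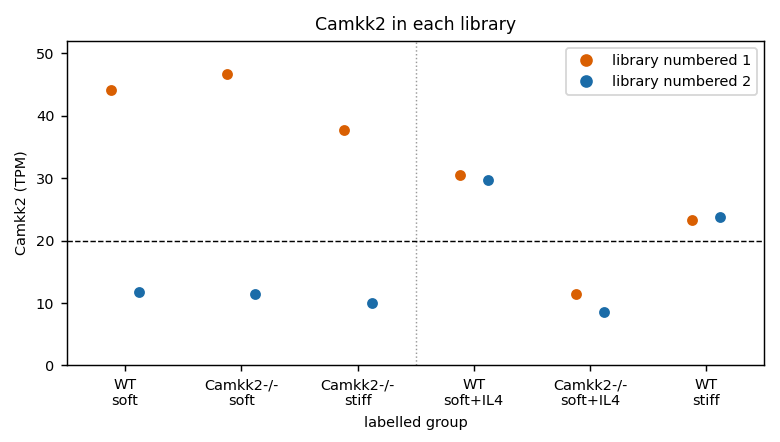
Camkk2 (TPM, linear axis) in each of the 12 libraries by labelled group, with libraries numbered 1 in orange and numbered 2 in blue; the dashed line marks 20 TPM and the dotted line parts the split groups from the others. In the 3 groups on the left the numbers lie on opposite sides of 20 TPM, and in the 3 on the right they lie on the same side.

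In all 12 libraries the macrophage genes Lyz2, Csf1r and Adgre1 were high, with at least 459.7 TPM of Adgre1 (F4/80), and depth is unknown because TPM keeps no read counts. The share of genes listed at 0 was 10.7% to 13.4% in the 6 libraries numbered 1 and 5.90% to 7.54% in the 6 numbered 2, in all groups alike, and its part in the results was not tested. The summed level of neutrophil markers (13 of 15 listed) was 125 to 139 TPM in the high-Camkk2 libraries and 152 to 167 TPM in the low ones. It was 136 to 141 TPM in WT soft+IL4 and 153 to 157 TPM in Camkk2-/- soft+IL4. Csf3r and Mmp8 made up most of it, while Elane, Prtn3 and Retnlg were at 0 in the 3 high-Camkk2 libraries and under 1 TPM in the low ones. S100a9 was 4.44, 1.95 and 0.287 TPM (WT soft, Camkk2-/- soft and Camkk2-/- stiff) in the high-Camkk2 libraries. It was 4.54, 4.63 and 4.03 TPM in the low ones. All 4 neutrophil markers with enough TPM to be tested were on average higher in the low-Camkk2 libraries (median log2 difference 0.24). In limma 1 was higher and 0 lower at an adjusted p under 0.05 (1.77% and 1.30% of all genes tested). The part of this list in the results was not tested. Markers of B cells (8 of 12 listed), mast cells or basophils (7 of 11), erythroid cells (2 of 11), T or NK cells (6 of 12) and stromal cells (10 of 12) summed to at most 4.33 TPM in any library of the split, with Pax5 and Nkg7 at 0 in all 6. Dendritic cell markers (12 of 12) summed to 747 to 888 TPM in the high-Camkk2 and 721 to 759 TPM in the low-Camkk2 libraries, nearly all of it from Bst2, which is also an interferon-stimulated gene.

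Differences are given below as number 2 minus number 1 on the log2(TPM + 1) scale, which understates the change of low genes, with the labelled group as a block. With an adjusted p under 0.05 and a difference of at least 1, 56 of the 10880 genes tested besides Camkk2 were called (0.515%), 32 higher (0.294%) and 24 lower (0.221%) in the low-Camkk2 libraries. These calls use the same contrast as the rule, and they serve to name genes. The direction was the same in all 3 groups for 56 of the 56 genes (26.9% of all genes tested were higher in all 3 and 14.4% lower). Of the 56, 29 differed by at least 1 in every group (0.276% of all genes tested did so). For 50 of them every library of one number lay above every library of the other (23.5% of all genes). The genes were called on the same 3 pairs, which favours such agreement, so these counts are descriptions.

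The sequences upstream of 4 of the genes with large differences are shown because the members include genes inducible by interferon, by hypoxia and by lipid signals. They are the 250 bases before the RefSeq start on GRCm38.p6, written 5′ to 3′ along the gene. Capitals mark the matches found by a search on both strands for an interferon-stimulated response element (ISRE, GAAA followed after any 2 bases by GAAA) and the core of a hypoxia response element (HRE, ACGTG). The regions are chr1:173982845-173983094, minus strand for Ifi202b, chr3:142594597-142594846, plus strand for Gbp2b, chr7:19699189-19699438, minus strand for Apoe and chr4:43506776-43507025, plus strand for Car9.
Ifi202b: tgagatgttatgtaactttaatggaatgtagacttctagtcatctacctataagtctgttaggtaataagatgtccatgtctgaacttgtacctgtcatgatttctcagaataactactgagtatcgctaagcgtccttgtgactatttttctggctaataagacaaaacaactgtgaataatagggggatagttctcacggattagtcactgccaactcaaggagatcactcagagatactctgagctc
Gbp2b: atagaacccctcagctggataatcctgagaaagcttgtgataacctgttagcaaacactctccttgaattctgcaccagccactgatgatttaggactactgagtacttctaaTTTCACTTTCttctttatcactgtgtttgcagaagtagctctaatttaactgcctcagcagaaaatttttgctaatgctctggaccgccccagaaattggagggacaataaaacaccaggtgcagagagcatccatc
Apoe: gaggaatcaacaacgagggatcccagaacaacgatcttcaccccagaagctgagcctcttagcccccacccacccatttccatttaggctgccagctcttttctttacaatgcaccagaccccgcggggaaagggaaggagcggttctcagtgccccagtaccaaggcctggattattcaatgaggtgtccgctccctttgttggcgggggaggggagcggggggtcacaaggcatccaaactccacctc
Car9: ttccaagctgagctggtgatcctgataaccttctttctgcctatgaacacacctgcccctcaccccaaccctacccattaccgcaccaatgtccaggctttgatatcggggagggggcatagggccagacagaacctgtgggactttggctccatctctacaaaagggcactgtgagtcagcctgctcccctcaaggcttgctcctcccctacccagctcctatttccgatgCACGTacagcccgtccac
An ISRE match lay at bases -137 to -128 of Gbp2b and an HRE core at -18 to -14 of Car9, counted back from the start, and the Ifi202b and Apoe windows held neither. Windows were found for 45 of the 56 genes. The ISRE occurred in 3.04% of the 27025 promoters, in 2 of 24 genes that were higher in the low-Camkk2 libraries (Gbp2b and Wls) and in 0 of 21 that were lower. The HRE core occurred in 16.6% of promoters, in the higher gene Depdc7 and in 4 lower genes, Apoc2, Car9, Fam43a and Mgll. A match is a run of letters and no measured binding site.

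The largest differences belonged to genes induced by interferon. Ifi202b (chr1:173962568-173982744, minus strand, GENCODE vM21) encodes a member of the Ifi200 family of cytosolic DNA-sensing proteins that lacks the pyrin domain. It held 0.321, 0 and 1.34 TPM in the libraries numbered 1 of WT soft, Camkk2-/- soft and Camkk2-/- stiff, and 67.7, 78.4 and 79.4 TPM in those numbered 2. The groups lay far apart, from a listed 0 or about 1 TPM to over 60. The difference was 5.70 ± 0.21 (log2, SE, 3 pairs). Gbp2b (chr3:142594847-142619179, plus strand), an interferon-inducible guanylate-binding protein, was at 0.445, 0.165 and 0.948 TPM in the high-Camkk2 and 16.3, 17.1 and 23.9 TPM in the low-Camkk2 libraries, a difference of 3.74 ± 0.14. Ifi44 and Ifi44l are neighbouring antiviral genes (chr3:151730922-151749960, minus strand, and chr3:151758737-151762892, minus strand). Ifi44 was 7.78, 5.83 and 6.41 TPM against 72.7, 77.6 and 62.1 TPM, and Ifi44l 0, 0.0826 and 0.862 TPM against 56.9, 58.1 and 47.0 TPM, with differences of 3.23 ± 0.11 and 5.44 ± 0.23. In each of the 4 genes all 3 low-Camkk2 libraries stood above all 3 high ones. Ifi202b and the Ifi44 pair have close copies, so how reads were shared among them is uncertain.

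The same 4 genes differed by labelled genotype under IL-4. Ifi202b was 2.15 and 2.03 TPM in WT soft+IL4 and 80.4 and 82.5 TPM in Camkk2-/- soft+IL4, and rose by 4.74 ± 0.10 (limma adjusted p = 2.37e-05). Gbp2b was 2.00 and 1.78 TPM against 34.2 and 37.9 TPM and rose by 3.68 ± 0.12 (limma adjusted p = 0.000248). Ifi44 stood at 5.17 and 4.72 TPM against 34.9 and 35.8 TPM, a rise of 2.61 ± 0.10 (limma adjusted p = 0.00048), and Ifi44l at 1.95 and 2.89 TPM against 18.8 and 28.1 TPM, a rise of 2.82 ± 0.22 (limma adjusted p = 0.00648, and 0.0577 without WT soft+IL4 1). The genotypes did not overlap for any of the 4 (39.0% of all genes tested). The WT stiff libraries held 34.9 and 28.9 TPM of Ifi202b, 3.61 and 12.8 of Gbp2b, 0.791 and 15.0 of Ifi44 and 1.00 and 9.50 of Ifi44l, so that Ifi202b was also high there.

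**Figure D2:**
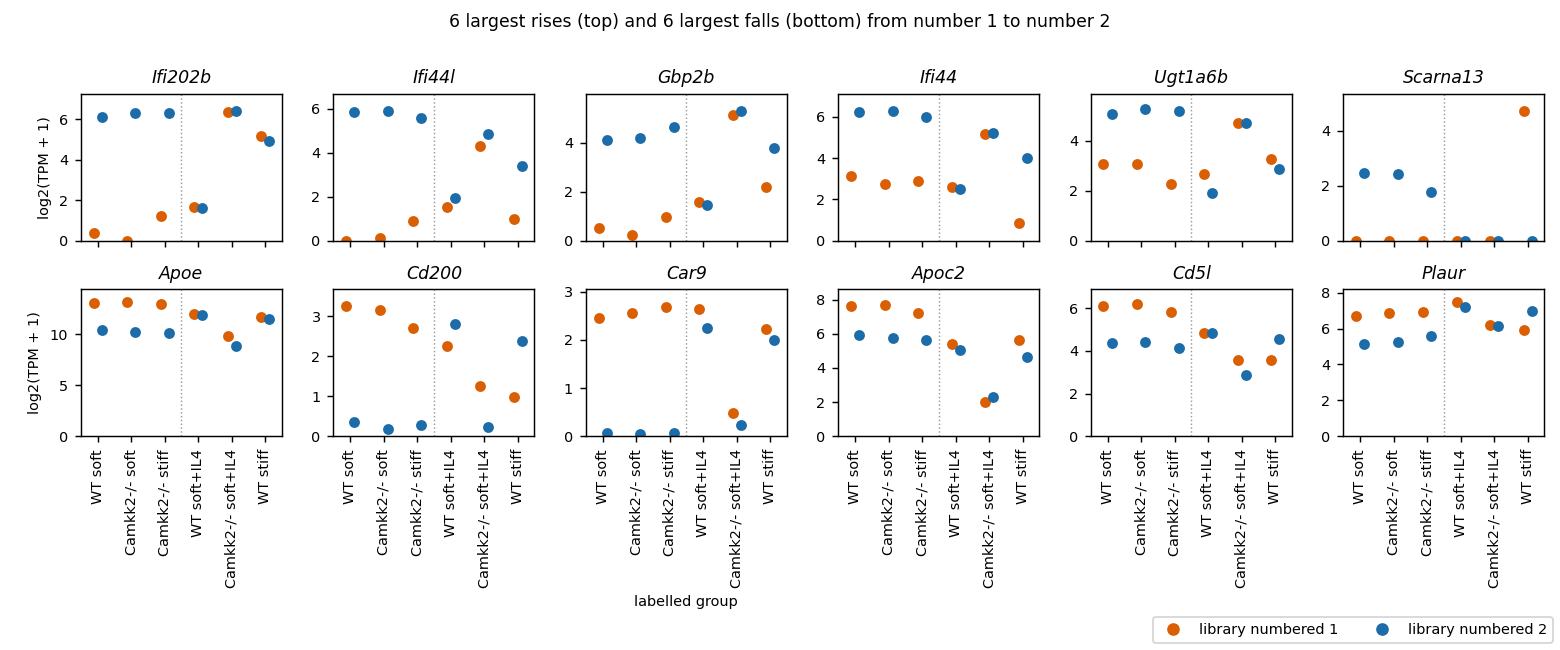
log2(TPM + 1) of the 6 highest-ranked named genes that were higher and the 6 that were lower in number 2, in all 12 libraries by labelled group (orange, numbered 1; blue, numbered 2). Left of the dotted line the colours separate; in soft+IL4, right of it, the genotypes separate and the colours mostly do not, except for Scarna13, which was listed at 0 in the 4 IL-4 libraries.

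Most other interferon-stimulated genes did not follow these 4 in the split. Of the 35 on a list of interferon-stimulated genes, Ifi44 and Ifi44l were called, none was called lower, and 26 were lower in all 3 low-Camkk2 libraries than in their partners (14.4% of all genes tested), with a median difference of -0.16 (all genes tested 0.04). At any size, 7 were lower and 4 higher at an adjusted p under 0.05 in limma in the split (1.30% and 1.77% of all genes). Ifit3, for example, was 103, 113 and 80.4 TPM in the high-Camkk2 and 67.1, 71.3 and 57.5 TPM in the low-Camkk2 libraries. Irf7 was 171, 182 and 144 TPM against 202, 203 and 163 TPM, and Xaf1, a pro-apoptotic interferon-stimulated gene, 18.0, 22.9 and 15.9 TPM against 39.1, 40.3 and 34.3 TPM. Under IL-4, 31 of the 35 were above WT in the Camkk2-/- libraries, with a median of 0.11 (all genes tested 0.01), and 4 passed the test, all higher (63 of all genes, 0.579%): Ifi44, Ifi44l, Irf7 by 0.66 ± 0.07 (limma adjusted p = 0.0151, and 0.0667 to 0.128 whichever library was left out) and Xaf1 by 1.16 ± 0.11 (limma adjusted p = 0.0135, and 0.0735 without Camkk2-/- soft+IL4 1 and 0.11 without Camkk2-/- soft+IL4 2 and 0.0935 without WT soft+IL4 1). Irf7 encodes the transcription factor that amplifies type I interferon responses.

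Most other Ifi200 genes were lower. Of the 11 members listed, 8 were lower in all 3 low-Camkk2 libraries than in their partners (14.4% of all genes tested). Higher in all 3 were 2, Ifi202b and Ifi203 (26.9% of all genes). Called lower were 3 (0.221% of all genes), Pydc3, Pyhin1 and Mnda, which RefSeq lists as Ifi208, Ifi209 and Ifi211. Mnda was 85.8, 94.1 and 71.6 TPM in the high-Camkk2 and 36.8, 39.7 and 37.6 TPM in the low-Camkk2 libraries (-1.11 ± 0.08), and Pyhin1 was 37.5, 40.5 and 32.8 TPM against 17.3, 16.9 and 15.0 TPM (-1.12 ± 0.07). Pydc3 was 5.22, 5.54 and 3.67 TPM against 1.50, 1.67 and 1.03 TPM. In these 3 the sides did not overlap (23.5% of all genes). Aim2, the family's inflammasome sensor, was 31.8, 28.1 and 29.3 TPM against 30.1, 31.9 and 30.1 TPM. Under IL-4, Mnda fell by genotype, from 42.8 and 49.2 TPM to 28.6 and 26.3 TPM (-0.72 ± 0.10, limma adjusted p = 0.0423, and 0.109 to 0.241 whichever library was left out), and Ifi203 rose by 0.69 ± 0.09 (limma adjusted p = 0.0426, and 0.0827 to 0.324 whichever library was left out). Pyhin1 (-0.68 ± 0.11, limma adjusted p = 0.0829) and Pydc3 (-0.13 ± 0.26, limma adjusted p = 0.921) did not pass the test. The family is a tandem cluster of similar genes, so values of single members are uncertain.

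The apolipoproteins Apoe and Apoc2 and the secreted protein Cd5l were lower in the low-Camkk2 libraries. Apoe (chr7:19696109-19699188, minus strand), the apolipoprotein that carries cholesterol out of macrophages, was 8727, 8891 and 7766 TPM in the high-Camkk2 libraries and 1362, 1234 and 1092 TPM in the low ones. No library of one side came near the other, and the difference was -2.79 ± 0.04. Apoc2 (chr7:19671579-19677941, minus strand), the activator of lipoprotein lipase, was 199, 203 and 146 TPM against 59.3, 52.6 and 48.5 TPM (-1.74 ± 0.07). Cd5l (chr3:87357881-87371073, plus strand), a secreted inhibitor of macrophage apoptosis, was 66.3, 72.3 and 55.5 TPM against 19.5, 19.9 and 16.7 TPM (-1.73 ± 0.07). Mgll, the lipase of monoacylglycerols, was 4.69, 3.26 and 5.54 TPM against 1.20, 1.23 and 1.32 TPM. Plbd1, a lysosomal phospholipase B-like protein, went the other way, at 17.8, 13.4 and 18.5 TPM against 54.0, 58.1 and 53.3 TPM.

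By genotype under IL-4 the apolipoproteins fell as well. Apoe was 4162 and 3757 TPM in the WT and 909 and 468 TPM in the Camkk2-/- libraries (-2.60 ± 0.27, limma adjusted p = 0.0164, and 0.147 without WT soft+IL4 1 and 0.0778 without WT soft+IL4 2). Apoc2 was 40.7 and 31.5 TPM against 3.07 and 3.84 TPM (-3.05 ± 0.16, limma adjusted p = 0.00176). Cd5l fell from 27.7 and 27.9 TPM to 10.9 and 6.36 TPM (-1.62 ± 0.22, limma adjusted p = 0.0423, and 0.263 without WT soft+IL4 1 and 0.139 without WT soft+IL4 2), and Plbd1 rose by 0.95 ± 0.09 (limma adjusted p = 0.0137, and 0.0502 to 0.109 whichever library was left out). The genotypes did not overlap for these genes, as for 39.0% of all genes tested. Of 17 genes on a list of LXR targets and lipid efflux genes, Apoe and Apoc2 alone were called in the split. Lpl was 2279, 2190.4 and 2143 TPM against 2069.8, 2161 and 2059 TPM, and the sterol transporter Abca1 was 39.4, 41.2 and 41.3 TPM against 58.7, 60.9 and 53.1 TPM. The list's median was -0.02 in the split and 0.02 under IL-4, where 2 of 17 passed the test, both lower (0.239% of all genes tested were lower and passed).

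Genes of the cell surface were called in both directions. Cd200, the ligand of an inhibitory receptor of myeloid cells, was 8.49, 7.93 and 5.57 TPM in the high-Camkk2 and 0.281, 0.141 and 0.217 TPM in the low-Camkk2 libraries (-2.76 ± 0.19). Plaur, the urokinase receptor, was 104, 115 and 119 TPM against 34.6, 36.9 and 47.8 TPM (-1.49 ± 0.07). Higher in the low-Camkk2 libraries were Tgfbr2 (the type II receptor of TGF-beta, 44.3, 44.7 and 39.9 TPM against 105, 107 and 89.9 TPM) and Kcnj10 (a potassium channel, 2.65, 3.24 and 3.07 TPM against 18.1, 18.3 and 14.6 TPM). Gpr34, Fpr1 (a formyl peptide receptor) and Slc39a4 (a zinc importer) were also higher, by 1.25, 1.13 and 1.23. Under IL-4, Plaur fell from 175 and 149 TPM to 72.8 and 69.0 TPM (-1.17 ± 0.09, limma adjusted p = 0.00646) and Tgfbr2 rose from 28.0 and 24.2 TPM to 50.6 and 47.3 TPM (0.89 ± 0.10, limma adjusted p = 0.0186, and 0.0601 to 0.136 whichever library was left out). Cd200 was 3.78 and 5.95 TPM against 1.39 and 0.175 TPM, which did not pass the test (-1.78 ± 0.37, limma adjusted p = 0.182).

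Among enzymes, Car9 (chr4:43506966-43513729, plus strand), the carbonic anhydrase of hypoxic cells, stood at 4.48, 4.92 and 5.46 TPM in the high-Camkk2 libraries and at 0.0495, 0.0347 and 0.0535 TPM in the low ones (-2.51 ± 0.18). Under IL-4 it was 5.28 and 3.74 TPM against 0.391 and 0.172 TPM and fell by genotype (-2.10 ± 0.23, limma adjusted p = 0.0189, and 0.0546 to 0.141 whichever library was left out). Of the 27 genes on a list of glycolysis and hypoxia genes, Car9 alone was called, the median was -0.03, and Vegfa was 46.5, 45.0 and 42.0 TPM against 66.0, 63.3 and 54.0 TPM. Ugt1a6b and Ugt1a7c, glucuronosyltransferases whose annotated genes overlap and share exons, were 7.39, 7.35 and 3.80 TPM against 33.3, 37.8 and 35.3 TPM and 97.8, 94.4 and 80.8 TPM against 207, 218 and 184 TPM. They rose under IL-4 by 2.44 ± 0.24 (limma adjusted p = 0.0135, and 0.0796 without Camkk2-/- soft+IL4 1 and 0.0868 without Camkk2-/- soft+IL4 2) and 0.88 ± 0.09 (limma adjusted p = 0.0135, and 0.0631 without Camkk2-/- soft+IL4 2 and 0.109 without WT soft+IL4 1 and 0.0638 without WT soft+IL4 2), and because they overlap they are no independent pair. Mgst1, a microsomal glutathione transferase, was 184, 198 and 213 TPM against 441, 440.3 and 403 TPM, and its genotype difference of 0.33 ± 0.09 did not pass the test (limma adjusted p = 0.322). Eno1b, a near copy of the enolase gene Eno1, was higher by 1.24 in the split and rose by 1.30 ± 0.14 under IL-4 (limma adjusted p = 0.0164, and 0.0935 without Camkk2-/- soft+IL4 1 and 0.0993 without Camkk2-/- soft+IL4 2), while Eno1 was 606, 618 and 680.1 TPM against 576, 582 and 629.7 TPM. Gchfr, the feedback regulator of GTP cyclohydrolase, was 0, 0 and 1.41 TPM against 7.23, 3.09 and 4.91 TPM, and the zinc-binding metallothioneins Mt2 and Mt3 were higher by 1.14 and 1.00.

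Some secreted proteins of alternatively activated macrophages were lower in the low-Camkk2 libraries, and stiff libraries held more of them than soft ones on each side. Chil3 (Ym1), a chitinase-like protein, was 110.4, 107 and 539.7 TPM against 35.4, 37.1 and 322 TPM, with the stiff libraries highest on each side, so that the sides overlapped and the difference showed within each group. Ear2, an eosinophil-associated ribonuclease, was 14.7, 8.81 and 89.8 TPM against 4.81, 4.29 and 42.5 TPM, and the chemokine Ccl17 1.4, 2.04 and 13.8 TPM against 0, 0.219 and 6.53 TPM. Ccl8 went the other way, at 0.708, 2.41 and 16.9 TPM against 6.57, 9.71 and 24.9 TPM. With IL-4 present, Chil3 fell from 1926 and 1911 TPM to 1341 and 1256 TPM (-0.56 ± 0.04, limma adjusted p = 0.00646, and 0.0669 without WT soft+IL4 1), Ccl8 rose from 50.4 and 44.7 TPM to 78.2 and 82.6 TPM (0.75 ± 0.08, limma adjusted p = 0.0186, and 0.0601 to 0.14 whichever library was left out), and Ccl17 was 32.9 and 33.3 TPM against 32.6 and 28.9 TPM (limma adjusted p = 0.788). On a list of 32 IL-4 and alternative activation genes (30 tested), 3 were called in the split, all lower (0.221% of all genes tested), and the median was -0.20. Under IL-4, with 2 libraries per genotype, 3 passed the test upward and 2 downward (0.340% and 0.239% of all genes). The downward ones were Chil3 and Rnase2a, and the upward ones were Retnla (0.24), Ccl24 (0.65) and Il4i1 (0.39). Chil3, Ear2 and Rnase2a have close copies and are uncertain. Gdf15, a stress-induced cytokine, was 16.8, 17.6 and 21.8 TPM against 6.34, 8.93 and 5.27 TPM, and Angptl7 was higher by 1.21.

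Of the genes of cell division, Mcm6, a subunit of the replicative helicase, was 22.0, 21.0 and 21.2 TPM against 10.2, 8.84 and 8.55 TPM (-1.13 ± 0.09) and fell under IL-4 from 20.6 and 19.2 TPM to 8.47 and 6.14 TPM (-1.35 ± 0.16, limma adjusted p = 0.0236, and 0.0755 without Camkk2-/- soft+IL4 2 and 0.201 without WT soft+IL4 1 and 0.0961 without WT soft+IL4 2). It was the only one of 30 tested cell cycle and replication genes to be called in either comparison. The other helicase subunits Mcm2, Mcm3, Mcm4, Mcm5 and Mcm7 differed by 0.00, -0.18, 0.02, -0.18 and -0.15 in the split. The list's median was -0.12 in the split and -0.31 under IL-4. By genotype under IL-4, 2 of the 30 were higher, and 9 had an unadjusted p under 0.05 in limma (8.76% of all genes). In the split 14 were higher and 5 had such a p (17.9% of all genes). The listed genes summed to 774 to 796 TPM in WT soft+IL4 and 630 to 640 TPM in Camkk2-/- soft+IL4. Cdkn2b, the CDK inhibitor p15, was 3.35, 3.66 and 2.34 TPM against 9.28, 7.77 and 7.76 TPM. Rps3a1, a protein of the small ribosomal subunit with several processed copies, was 639, 613 and 677 TPM against 298, 317 and 275 TPM and was the only ribosomal protein gene of 82 tested to be called, in the split and under IL-4 (-1.09 ± 0.08, limma adjusted p = 0.00646, and 0.0601 without WT soft+IL4 1).

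The other called genes have varied roles. Lower in the low-Camkk2 libraries were Rhoc at 326, 348 and 339.9 TPM against 144, 141 and 164 TPM, and Tusc1 at 93.1, 88.8 and 81.1 TPM against 39.3, 36.2 and 40.7 TPM. Both fell under IL-4, with differences of -0.67 ± 0.08 (limma adjusted p = 0.0213, and 0.0631 without Camkk2-/- soft+IL4 2 and 0.141 without WT soft+IL4 1 and 0.105 without WT soft+IL4 2) and -0.94 ± 0.11 (limma adjusted p = 0.0273, and 0.112 without Camkk2-/- soft+IL4 1 and 0.156 without Camkk2-/- soft+IL4 2 and 0.1 without WT soft+IL4 1). Fam43a, Flywch2, Vsig8, Uchl1 (a deubiquitinase), Galnt9 (a glycosyltransferase) and Dio2 (a thyroid hormone deiodinase) were lower, with differences of -1.04 to -1.29. Higher were Wls, the carrier of Wnt ligands, at 42.9, 44.6 and 39.7 TPM against 86.9, 96.4 and 86.5 TPM, and Clstn1, a calsyntenin, at 0.928, 1.20 and 1.19 TPM against 3.75, 2.90 and 4.14 TPM. Both rose under IL-4, by 0.69 ± 0.07 (limma adjusted p = 0.0164, and 0.0638 to 0.123 whichever library was left out) and 1.21 ± 0.16 (limma adjusted p = 0.0405, and 0.113 to 0.346 whichever library was left out). Depdc7, Neurl1a, Mb21d2 and Mcemp1 were higher by 1.04 to 1.55. The clone-named gene 1500011B03Rik was 11.3, 11.5 and 18.5 TPM against 93.0, 95.5 and 78.2 TPM and rose under IL-4 by 2.11 ± 0.11 (limma adjusted p = 0.00176), and Gm14085, Gm4013 and Gm35612 were higher by 1.15 to 1.66. The small RNA genes Scarna13 (0, 0 and 0 TPM against 4.56, 4.40 and 2.40 TPM) and Rn4.5s (0, 4.39 and 15.3 TPM against 4.32, 9.65 and 30.9 TPM) completed the 56, and both are small non-coding RNAs in poly-A selected libraries.

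**Figure D3:**
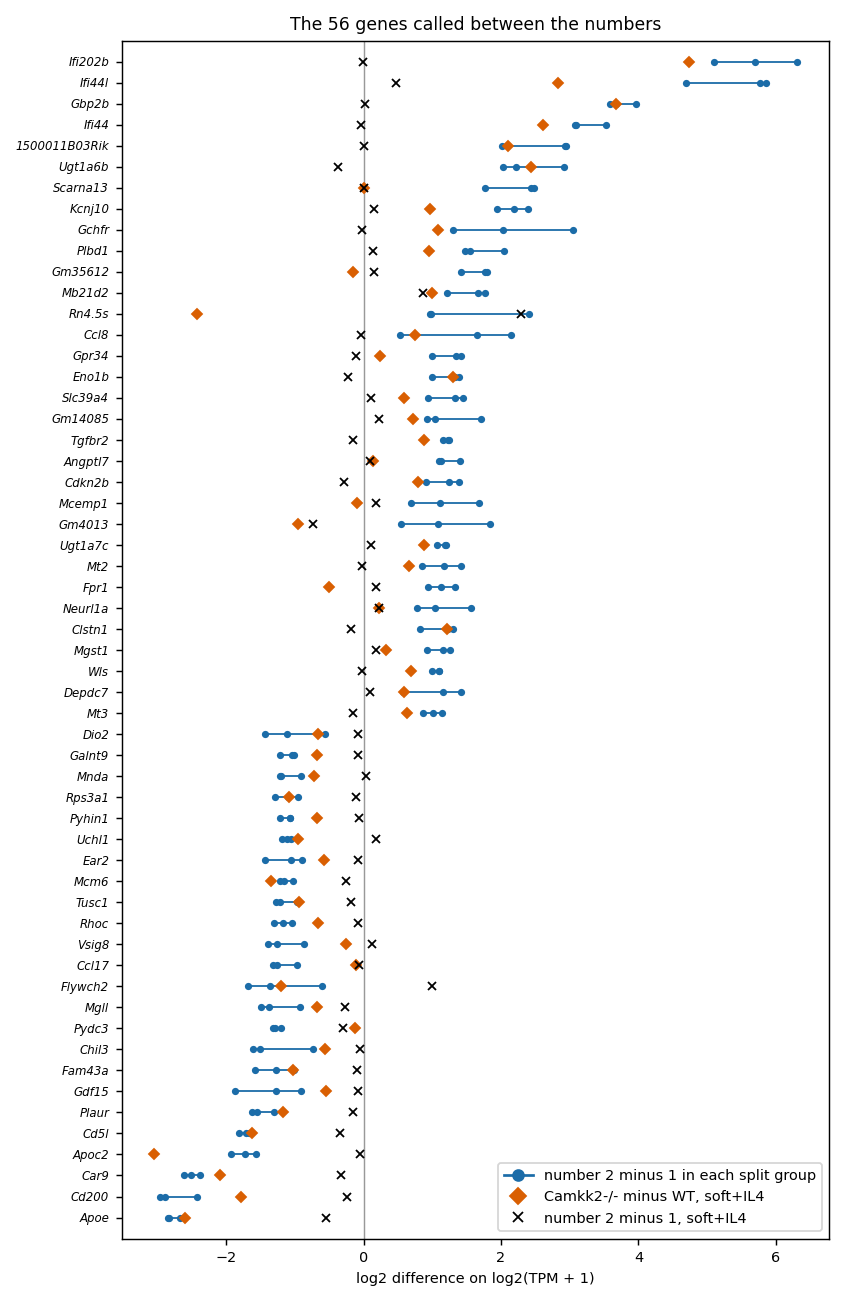
The 56 called genes, ordered by their difference in the split, with the log2 difference of number 2 minus number 1 in each of the 3 split groups (blue points joined by a line), of Camkk2-/- minus WT in soft+IL4 (orange diamonds) and of number 2 minus number 1 in soft+IL4 (black crosses). The orange diamonds lie on the same side of 0 as the blue points for 50 of the 56 genes, and the crosses for 37.

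Beyond the called genes, the MHC class II genes were higher in the low-Camkk2 libraries. The summed level of the 10 genes was 19167 to 20276 TPM in the high-Camkk2 libraries and 27347 to 27703 TPM in the low ones. It was 22858 to 23149.7 TPM in WT soft+IL4 and 29992 to 30861 TPM in Camkk2-/- soft+IL4. In the split 8 of 10 were higher in all 3 groups (26.9% of all genes tested), with a median difference of 0.50, and none reached 1. At any size, 7 of the 10 had an adjusted p under 0.05 in limma, all higher (1.77% of all genes), and 8 an unadjusted p under 0.05 (17.9% of all genes). H2-Eb1 was 1497, 1485 and 1437 TPM against 2335, 2341 and 2286 TPM, and Ciita, the master regulator of the class II genes, 39.9, 39.9 and 47.2 TPM against 63.4, 62.9 and 66.1 TPM. By genotype under IL-4, 4 of 10 passed the test, all higher (0.340% of all genes tested were higher and passed). These were the class II chains H2-Aa (0.52 ± 0.05, limma adjusted p = 0.0106, and 0.0533 without Camkk2-/- soft+IL4 2 and 0.108 without WT soft+IL4 1 and 0.0554 without WT soft+IL4 2), H2-Ab1 (0.52 ± 0.04, limma adjusted p = 0.0078, and 0.0672 without Camkk2-/- soft+IL4 2) and H2-Eb1 (0.64 ± 0.03, limma adjusted p = 0.00176) and the invariant chain Cd74 (0.33 ± 0.03, limma adjusted p = 0.0106, and 0.0681 to 0.111 whichever library was left out). Ciita had 0.33 ± 0.09 (limma adjusted p = 0.316). In bulk RNA more cells with high class II and more RNA per cell cannot be told apart.

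Of the 21 macrophage identity genes 17 were higher and 3 lower in all 3 low-Camkk2 libraries (26.9% and 14.4% of all genes tested), none was called, and the median was 0.19. In limma 17 had an unadjusted p under 0.05 (17.9% of all genes), and 8 were higher and 1 lower at an adjusted p under 0.05 at any size (1.77% and 1.30% of all genes). Complement C1qa was 937, 969.8 and 859.9 TPM against 1456, 1457 and 1278 TPM and alone passed the test under IL-4 (0.54 ± 0.04, limma adjusted p = 0.00646, and 0.0536 without Camkk2-/- soft+IL4 2 and 0.0601 without WT soft+IL4 1). In the CaMKK2 and AMPK pathway, 0 of 17 tested genes were called in either comparison and 0 passed an adjusted p under 0.05 in limma at any size (2 and 3 had an unadjusted p under 0.05, against 17.9% and 8.76% of all genes), with medians of 0.01 and -0.08. Camk1 was 203, 211 and 186 TPM against 213, 208 and 192 TPM, and Prkaa1, the AMPK catalytic subunit, 13.6, 16.0 and 16.8 TPM against 16.3, 18.3 and 15.6 TPM. Called in the split was also 0 of 16 immediate early genes (median 0.01), 0 of 23 cholesterol synthesis genes (median -0.05), 0 of 11 genes of handling stress (median -0.05) and 0 of 4 tested sex-linked genes (median 0.10). At an unadjusted p under 0.05 in limma the counts were 5, 4, 3 and 1 in the same order. Among 18 p53 targets Gdf15 alone was called (median 0.05), and among 18 inflammatory cytokines and chemokines Ccl8 alone (median 0.15). Of the latter 18, 11 were higher and 1 lower in all 3 low-Camkk2 libraries (26.9% and 14.4% of all genes tested). In limma 8 had an unadjusted p under 0.05 (17.9% of all genes). By genotype under IL-4, 16 of these 18 were higher, the median was 0.23, and 2 passed the test, both higher (0.340% of all genes). Genes of the mitochondrial genome were not analysed here, and the 82 ribosomal protein genes had a median of -0.06. Of the 82, 37 were lower and 4 higher in all 3 low-Camkk2 libraries (14.4% and 26.9% of all genes tested). In limma 27 had an unadjusted p under 0.05, and 7 were lower and 0 higher at an adjusted p under 0.05. The listed ribosomal protein genes summed to 135011 to 135785 TPM in the high-Camkk2 and 123117 to 130792 TPM in the low-Camkk2 libraries. The part of this shift in other TPM values was not tested.

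**Figure D4:**
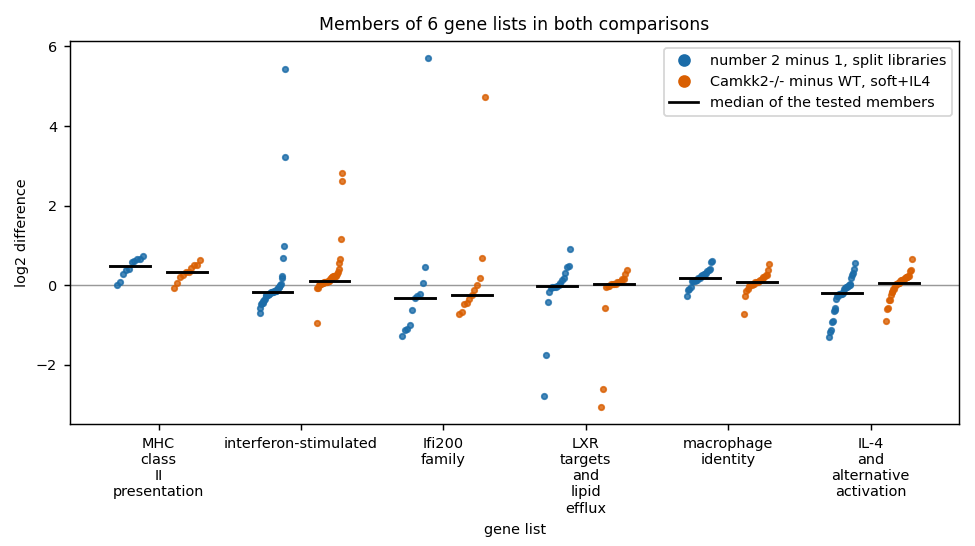
Log2 differences of the tested members of 6 gene lists in the split (blue) and by genotype in soft+IL4 (orange), with medians as black bars. The MHC class II members lie mostly above 0 in both comparisons, with medians of 0.50 and 0.33, while the interferon-stimulated list changes from a median of -0.16 to 0.11.

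Over the 56 genes, the difference by genotype under IL-4 had the direction of the split in 50 (89.3%), against 56.6% of all genes tested. It had that direction in 26 of the 32 higher genes and in 24 of the 24 lower genes, with medians of 0.74 and -0.83. The genotypes did not overlap and had the direction of the split in 47 (24.9% of all genes), and 19 differed by at least 1 that way (0.478% of all genes). In the 4 IL-4 libraries 18 genes besides Camkk2 were called (0.165%), 10 higher (0.0919%) and 8 lower (0.0735%), and 15 of them were among the 56. This overlap is 83.3% of the genes called by genotype and 26.8% of those called in the split. Called by genotype alone were Xaf1, Erdr1 (1.01 ± 0.13, limma adjusted p = 0.0333, and 0.176 without Camkk2-/- soft+IL4 1 and 0.135 without Camkk2-/- soft+IL4 2) and AA467197 (-1.55 ± 0.16, limma adjusted p = 0.0151, and 0.137 without WT soft+IL4 1 and 0.0638 without WT soft+IL4 2), whose differences in the split were 0.98, 0.90 and -0.55. At any size, 24 of the 56 passed the genotype test, each in the direction of the split. The 6 genes without the direction of the split were Rn4.5s, Gm4013, Fpr1, Gm35612, Mcemp1 and Scarna13, most of them at low TPM.

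The calls under IL-4 rest on few libraries. Of the 63 genes that passed the genotype test at any size, 10 still passed whichever of the 4 libraries was left out, and 6 of these are among the 56: Ifi202b, Gbp2b, Ifi44, Apoc2, Plaur and 1500011B03Rik. In 1 fit over all 12 libraries, 9 genes were called by genotype and 20 in the split, and with no filter on low values 1 and 8.

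Library number was compared in the same 4 IL-4 libraries, where the genotype labels and Camkk2 do not follow it. The titles of all 4 also carry the same soft number, 1, before the IL-4 number, so that the latter may not be of the same kind as the number of the other libraries. The numbered 2 minus numbered 1 difference had the direction of the split in 37 of the 56 genes (66.1%, against 53.2% of all genes tested), with a median of 0.09 in that direction, and Rn4.5s alone differed by at least 1 that way (0.193% of all genes). Of all genes 1 was called by number there (0.00919%), Gm6644, which is not among the 56 and was looked up after its values were seen. Rn4.5s was 16.2 and 25.2 TPM in WT and 0 and 14.6 TPM in Camkk2-/- soft+IL4. In WT stiff, where both libraries held about the same Camkk2, number 2 minus number 1 had the direction of the split in 27 of the 56, reached 1 in that direction in 10 (4.06% of all genes) and in the opposite one in 12. Those libraries differed by at least 1 in 9.49% of all genes, against 145 and 81 genes of the 10880 in WT and Camkk2-/- soft+IL4.

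**Figure D5:**
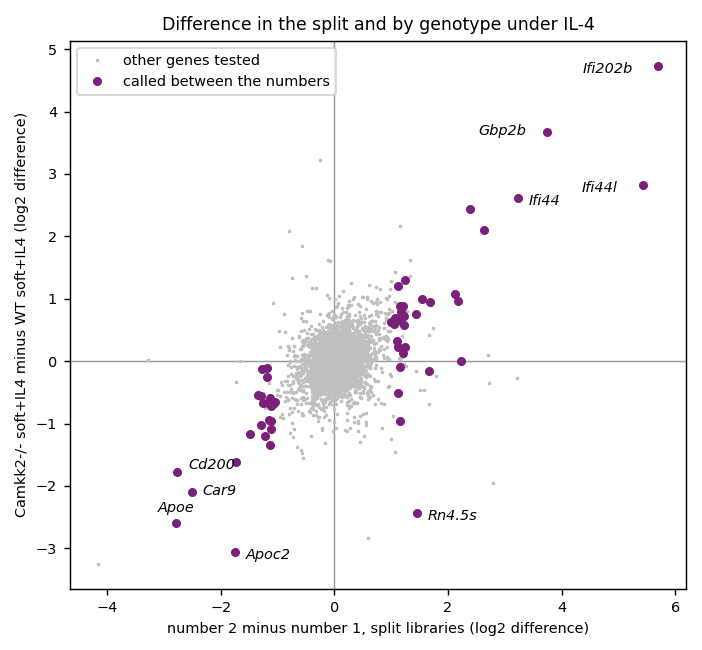
Difference in the split (x axis, number 2 minus number 1, log2) against the difference by labelled genotype in soft+IL4 (y axis, Camkk2-/- minus WT, log2) for 10880 genes, with the 56 called genes in purple. Most purple points lie in the upper right and lower left parts, and Rn4.5s lies apart at the lower right.

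Across the 10880 genes the differences in the split and by genotype under IL-4, which share no library, had a Pearson correlation of 0.362, and those in the split and by number under IL-4 one of 0.104. Genes are not independent replicates, and these values are descriptions. Within the split, the differences of the 3 pairs correlated at 0.304 to 0.328 with each other. Library number took 35.2% of the sum of squares over the 6 libraries, labelled group 36.3% and the rest 28.5%.

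By position, 50 of the 56 genes were found in GENCODE vM21, and 11 of these had another called gene within 1 Mb. They were the pairs Apoe and Apoc2, Ifi44 and Ifi44l, Kcnj10 and Vsig8, and Ugt1a6b and Ugt1a7c, and the trio Mt2, Mt3 and Ccl17. The 6 genes without a position include Pydc3, Pyhin1 and Mnda of the Ifi200 tandem cluster, so neighbours within that cluster are not counted. Around Camkk2 (chr5:122731170-122779409, minus strand), 0 of the 86 tested genes within 5 Mb were called by limma, and 1 of 156 within 10 Mb, 1500011B03Rik. Since 0.515% of all genes tested were called, so few genes could hold few calls. An unadjusted p under 0.05 in limma was found for 8 of 31 within 1 Mb, 23 of 86 within 5 Mb and 47 of 156 within 10 Mb. Among all genes it was 1952 of 10880 (17.9%).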

How the data were processed

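RNA of BMDM was sequenced in 12 libraries, 2 in each of 6 groups taken from the labels. The authors deposited TPM values, with every library summing to 1000000, and 14098 genes are listed. Salmon 1.4.0, Trim Galore 0.6.7 and mm10 are named in the submitters' processing notes, while the study's methods describe STAR, featureCounts and DESeq, so the route from reads to TPM is not settled. TPM holds no counts, so depth and counting error are unknown, and the annotation is not given in the sources used here. 0 columns were left unused.

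Tested were the 10881 genes, Camkk2 included, that reached 1 TPM in 2 or more of the 6 split libraries. The scale was log2(TPM + 1), and fits used limma 3.58.1 (R 4.3.3) with a variance trend (Benjamini-Hochberg over all genes, 2 residual degrees of freedom in each fit). Called genes had an adjusted p under 0.05 and a difference of at least 1. The split was fitted with the labelled group as block, the genotypes under IL-4 on their 4 libraries alone. Camkk2 was fitted with the other genes, but it was left out of counts and its test in the split was not used. Code was tested on simulated data.

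The members and gene lists were chosen with earlier results of these data known. Named were Camkk2, the 6 largest rises and falls with clone names left out (which leaves out 1500011B03Rik, above Ugt1a6b and Scarna13), the 5 higher and 5 lower genes carried furthest by genotype under IL-4, those carried by number or past 1 in the opposite direction, and up to 3 members of each list. Further called genes and list members, and their grouping by role, were chosen after their values were seen. List genes absent under their symbol were matched through RefSeq synonyms. Positions are from GENCODE vM21 on GRCm38 (mm10) and promoters from RefSeq GRCm38.p6. Other settings tried were median-of-ratios scaling, a pseudocount of 0.1, all genes unfiltered, 1 fit over 12 libraries, other call rules, a replicate block, and leaving out each pair or IL-4 library.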

Additional observations from a re-analysis of the deposited data

Results flagged for a closer look

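Among the 56 called genes and the other named genes, which alone were screened for this, 4 had all 3 pairs of the split on one side of 0 and the genotypes under IL-4 separated the opposite way, a difference that was not tested. The genotype difference under IL-4 was -2.43 for Rn4.5s, -0.95 for Gm4013, -0.51 for Fpr1 and -0.14 for the T cell marker Cd4, each of which was higher in all 3 low-Camkk2 libraries. Cd4 was at most 2.09 TPM.

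Only named genes that were higher in the low-Camkk2 libraries and rose by at least 1 by genotype under IL-4 were screened for the next point. Of these, 2 interferon-inducible genes were higher in both WT stiff libraries than in the 3 high-Camkk2 libraries and both WT soft+IL4 libraries. The comparisons leave the WT stiff libraries out. The lower of the WT stiff libraries held 28.9 TPM of Ifi202b and 3.61 TPM of Gbp2b. Both WT stiff values of Gbp2b, 3.61 and 12.8 TPM, were below those of the low-Camkk2 libraries, 16.3, 17.1 and 23.9 TPM. The pattern was not limited to interferon-inducible genes, since called genes outside this screen had it too. In WT stiff, 1500011B03Rik was 30.3 and 38.4 TPM, against at most 20.6 TPM in the high-Camkk2 and WT soft+IL4 libraries. Eno1b was 182.7 and 77.2 TPM, against at most 59.3 TPM.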

How the results depend on the processing

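Settings are limited here by 2 libraries per group and by TPM that hold no depth. Of the genes called in the split under each setting, 76.5% to 100% had the same direction by genotype under IL-4, while counts of calls moved. With no filter on low values 8 genes were called in the split and 1 by genotype under IL-4, 100% of the 8 had the same direction under IL-4, and their median genotype difference there was 1.86. In 1 fit over all 12 libraries 20 genes were called in the split and 9 by genotype, 100% of the 20 kept the direction, and the median was 1.00. Under the rule of at least 1 in each of the 3 groups with no p, 30 genes were called and the median was 1.01, and with a pseudocount of 0.1 the median was 0.89. With 1 pair or 1 IL-4 library left out, 50 to 81 genes were called in the split and 10 (without WT soft+IL4 1) to 26 (without WT soft+IL4 2) by genotype, the share with the same direction was 76.5% (without the WT soft pair) to 91.1%, and the median genotype difference was 0.65 to 0.81. Why these values moved was not tested, except that fewer libraries enter a fit when one is left out.

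The split was fitted on its 3 pairs, with the labelled group as block, and a further block on library number could not be fitted because the number is the contrast itself. With the library number as a replicate block, 20 genes were called by genotype under IL-4, and the share (89.3%) and median (0.74) were as without it. The deviations of same-numbered IL-4 libraries from their genotype means had a correlation of -0.03 over genes. That value alone cannot show what same-numbered libraries share. Their share of genes listed at 0 followed the number, at 11.7% and 13.3% in those numbered 1 and 6.98% and 5.99% in those numbered 2.

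Of 231 alternative values for 33 named genes in the split, 189 kept their direction and side of the threshold, 41 lost the call, 1 gained it and 0 reversed. Of 288 for the genotype difference under IL-4, 245 kept both, 33 lost the call, 1 gained it and 9 reversed, all in genes whose genotype difference under IL-4 was not called. Kdm5d was -0.00054 after median-of-ratios scaling. With 1 IL-4 library left out, the range was -0.083 to 0.20 for H2-Ob, -0.29 to 0.039 for Pydc3, -0.079 to 0.089 for Kdm5d, -0.083 to 0.0011 for Dnajb1 and -0.20 to 1.17 for S100a9.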
